A study of Mus musculus with 8 samples.

Results

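The genes described here are 39 mouse genes for inflammatory cytokines, chemokines, their receptors and 3 intracellular regulators of the same response, taken by symbol from a list that was drawn up with earlier results of these data known. Counts of them set beside those of all probe sets are therefore a description. A gene was taken as measured where a probe set carried its symbol alone in the platform annotation, which held for 38 of the 39, each with 1 probe set, among 21789 probe sets of 19938 genes. Il1r1, the signalling receptor of interleukin 1, had no such probe set and was not analysed here. Total RNA from mouse cells of the C57BL/6 strain had been hybridised to 8 Affymetrix arrays in 4 groups of 2. The cells carried an empty vector, full-length NUP98-HOXA9, or a deletion mutant of it labelled NUP98-HOXA9 delFG1 or NUP98-HOXA9 delFG2. The fusion arises from a chromosomal translocation in leukaemia and links the amino-terminal portion of a nuclear pore protein, NUP98, with its phenylalanine-glycine (FG) repeats, to the homeodomain of the transcription factor HOXA9. Per the series' design text, the deletion mutants were compared with the full-length protein to find the genes that depend on the NUP98 part. Neither the labels nor the design text state the residues removed in each mutant, the cell type, whether a line was 1 clone, or the age of the donor mice. The arrays of each group are numbered 1 and 2 in the labels, and the labels do not say whether separate cultures were used. The p-values therefore measure the spread between these arrays alone, which may be technical.

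Inflammatory cytokines are secreted proteins by which myeloid cells start and limit a response to injury or microbes. Many of their genes are switched on by NF-kB, a transcription factor that is held in the cytoplasm by the inhibitor IkB-alpha, the product of Nfkbia, until receptors for interleukin 1, tumour necrosis factor or microbial products trigger its release. NF-kB also switches on its own brakes, Nfkbia and Tnfaip3. Chemokines of the CXC and CC families direct the migration of leukocytes through receptors such as Ccr1 and Cxcr4. In the blood system these factors are made mainly by monocytes, macrophages, neutrophils, mast cells and dendritic cells.

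The promoters of several of the genes share a motif, and those of 3 genes that were lower with the full-length fusion, 1 that did not pass the test and 2 that were higher are shown so that the results can be set beside them. RefSeq promoter windows of 300 bases on GRCm38.p6, from 250 before to 50 after the start of transcription, were at hand for 32 of the 39 genes. Of the 32, 6 had several windows, and any gene was counted where at least 1 of its windows matched. The letters GGG and TTTCC with 2 bases of any kind between them, a 10-letter form of the NF-kB site, were found on either strand in 9 of the 32 genes (28.1%), against 1.89% of 27025 genes with a window. The genes printed do not stand for the set. All 3 lower genes printed hold the form, but only 5 of the 12 genes that were lower do. It was in 0 of the 4 higher genes with a window and in 4 of the 15 other measured genes with a window. The 120 bases before the start are printed for Il6 (chr5:30012994-30013113, plus strand), Cxcl2 (chr5:90903779-90903898, plus strand), Nfkbia (chr12:55492648-55492767, minus strand), Cxcl1 (chr5:90891125-90891244, plus strand), Ccl17 (chr8:94810333-94810452, plus strand) and Ccl22 (chr8:94745564-94745683, plus strand), each 5′ to 3′ on the gene's strand, with matches to that motif in capitals.
Il6: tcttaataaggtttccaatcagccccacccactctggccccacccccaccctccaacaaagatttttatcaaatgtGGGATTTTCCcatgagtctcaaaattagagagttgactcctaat
Cxcl2: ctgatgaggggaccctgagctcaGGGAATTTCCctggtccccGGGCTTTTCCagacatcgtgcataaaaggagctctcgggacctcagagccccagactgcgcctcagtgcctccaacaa
Nfkbia: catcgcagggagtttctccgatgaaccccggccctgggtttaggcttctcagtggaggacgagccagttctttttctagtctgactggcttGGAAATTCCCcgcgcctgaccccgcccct
Cxcl1: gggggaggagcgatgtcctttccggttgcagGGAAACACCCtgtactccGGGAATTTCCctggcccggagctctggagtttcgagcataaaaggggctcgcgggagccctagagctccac
Ccl17: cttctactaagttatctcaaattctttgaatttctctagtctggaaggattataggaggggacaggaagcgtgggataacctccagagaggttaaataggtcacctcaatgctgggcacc
Ccl22: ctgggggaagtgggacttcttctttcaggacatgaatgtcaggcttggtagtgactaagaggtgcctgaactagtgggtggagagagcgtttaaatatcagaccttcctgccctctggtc
The match in Il6 began at position -44 from the start of transcription, that in Nfkbia at -29, those in Cxcl2 at -97 and -78 and those in Cxcl1 at -89 and -71. Ccl17 and Ccl22 had no match in their windows.

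Median intensity was 80.67 to 83.21 on the 8 arrays, and arrays of a group correlated across all genes with r between 0.995 and 0.996. The arrays numbered 2 of the full-length and delFG1 groups were closer to each other than to their own partners (r = 0.999), with a typical difference over the 38 measured genes of 0.11 on the log2 scale against 0.22 and 0.25 within those groups. The arrays numbered 1 of these groups were 0.16 apart (r = 0.997). Empty vector and delFG2 arrays numbered 2 were 0.20 apart (r = 0.998), against 0.33 and 0.34 within those groups. Over the 38 genes, every array was nearest to an array of another group. Hoxa9, whose product is part of the fusion, read 7.56 and 7.34 on the log2 scale with the empty vector, 9.41 and 9.43 with the full-length fusion, 8.40 and 7.93 with delFG1 and 8.06 and 7.59 with delFG2. The labels do not say which part of Hoxa9 its probe set covers, or the species of the fusion's cDNA, so these values do not check the labels of the mutants.

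All values below are log2(intensity + 1), given for array 1 and then array 2 of each group, and a difference is a difference of group means on that scale. Separate limma fits over all 8 arrays were made, each with Benjamini-Hochberg adjustment over the 21789 probe sets: 1 without the array number, and 1 with the array number as a block, because arrays with the same number deviated together in every pair of groups. "Rose", "fell" and "passed" refer to an adjusted p under 0.05 in the fit with the block, and adjusted p-values come from that fit unless stated otherwise. No gene of the set passed in the fit without the block in any of the 6 comparisons of groups. The fit without the block had been set as the main fit and the fit with it as the alternative. The calls below therefore rest on the alternative fit.

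With the full-length fusion, 12 of the 38 measured genes fell and 5 rose relative to the empty vector. The 12 were the interleukin 1 genes Il1a, Il1b and Il1rn, Il6 and its receptor Il6ra, the chemokines Cxcl2 and Ccl6, the chemokine receptor Ccr1, the tumour necrosis factor receptor Tnfrsf1b, and the 3 regulators Tnfaip3, Nfkbia and Nlrp3. The 5 were the chemokines Ccl17 and Ccl22, the cytokine genes Il10 and Il12a, and the vascular growth factor Vegfa. Changed genes made up 44.7% of the set, against 6.61% of all probe sets tested; those that fell made up 31.6% against 4.43%, and those that rose 13.2% against 2.18%. The median difference of the 38 was -0.34, against 0.02 over all probe sets. Of the 38, 27 were below 0, where 43.4% of all probe sets were. Without the block 0 of 38 passed, against 0.124% of all probe sets, with 18 at an unadjusted p under 0.05 by limma and adjusted p-values for the 17 genes from 0.0558, for Il12a, to 0.54, for Nlrp3; with the block 27 had an unadjusted p under 0.05. Among all 21789 probe sets, 2078 without the block and 4045 with it had an unadjusted p under 0.05 by limma. Both arrays of the full-length group lay below both of the empty vector group for 17 of 38 genes (44.7%), where 15.6% of all probe sets did so, and above them for 7 (18.4%), where 23.4% did so. In RNA from a whole cell sample, fewer cells of a type and less RNA per cell cannot be told apart.

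**Figure D1:**
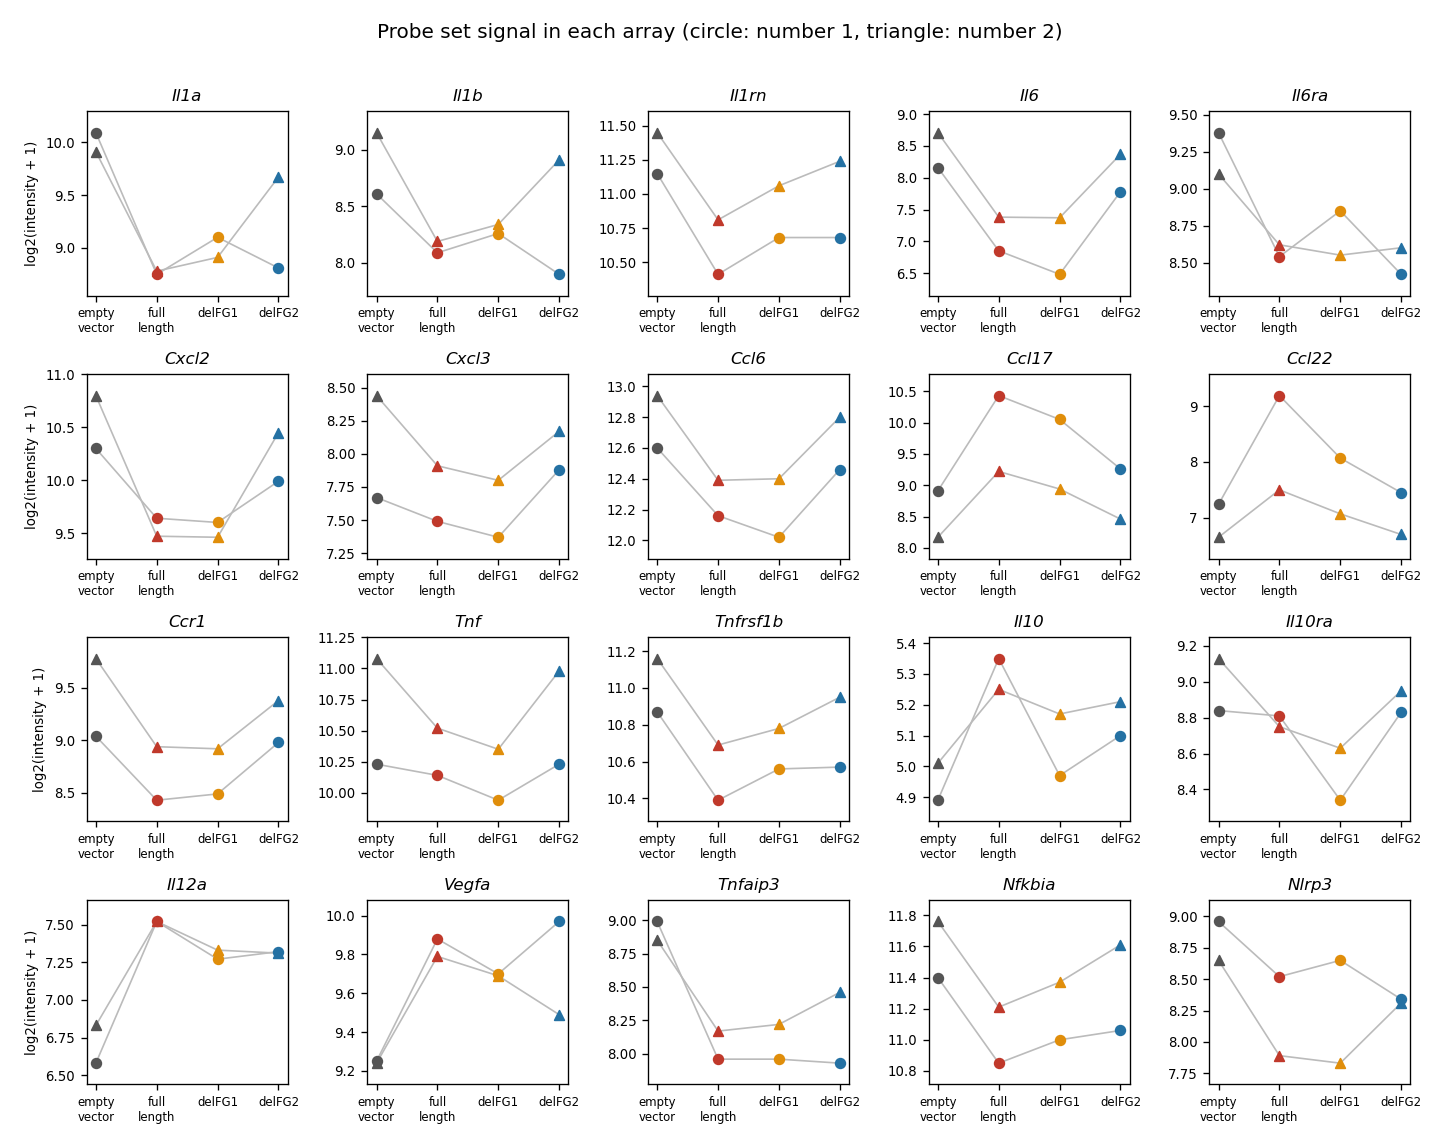
Signal, as log2(intensity + 1), of the 20 genes that passed in at least 1 comparison of groups in the fit with the block, by group on the x axis; circles are arrays numbered 1, triangles arrays numbered 2, and grey lines join arrays of the same number. Each panel has its own y range, and for Il6 both full-length and both delFG1 arrays lie below all 4 empty vector and delFG2 arrays.

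The interleukin 1 family contains the alarm cytokines IL-1-alpha and IL-1-beta, their antagonist IL-1Ra (Il1rn), the decoy receptor Il1r2 and the related cytokine IL-18. Il1a read 10.09 and 9.91 with the empty vector, 8.75 and 8.78 with the full-length fusion, 9.10 and 8.91 with delFG1 and 8.81 and 9.67 with delFG2. Both empty vector arrays were above the other 6, and the delFG2 arrays were far apart. Il1a fell with the full-length fusion by 1.24 ± 0.20 (SE; 2.36-fold; adjusted p by limma = 0.00438). Il1b read 8.61 and 9.15 with the empty vector, 8.09 and 8.19 with the full-length fusion, 8.26 and 8.34 with delFG1 and 7.90 and 8.91 with delFG2, and fell with the full-length fusion by 0.74 ± 0.19 (SE; adjusted p by limma = 0.0394). Its delFG2 arrays spanned the values of all the other groups but the highest empty vector array. The antagonist moved with the agonists: Il1rn read 11.15 and 11.45 with the empty vector, 10.41 and 10.81 with the full-length fusion, 10.68 and 11.06 with delFG1 and 10.68 and 11.24 with delFG2. Il1rn fell by 0.69 ± 0.07 (SE; 1.61-fold; adjusted p by limma = 0.000293), by 0.74 among arrays numbered 1 and 0.64 among those numbered 2. Il18 and Il1r2 did not pass, with differences of -0.65 (95% interval -1.11 to -0.19, adjusted p by limma = 0.0996) and -0.24 (-0.41 to -0.08, adjusted p by limma = 0.0908).

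The interleukin 6 family signals through the shared chain gp130, and includes IL-6, oncostatin M (Osm) and leukaemia inhibitory factor (Lif). Il6 read 8.16 and 8.71 with the empty vector, 6.85 and 7.38 with the full-length fusion, 6.48 and 7.37 with delFG1 and 7.78 and 8.37 with delFG2. The groups fell into a high pair, empty vector and delFG2, and a low pair, full-length and delFG1, with no array of one pair reaching the other, and in each group the array numbered 2 was the higher. Il6 fell with the full-length fusion by 1.32 ± 0.11 (SE; 2.5-fold; adjusted p by limma = 0.000121), by 1.31 among arrays numbered 1 and 1.33 among those numbered 2. Il6ra, the receptor chain that binds IL-6, read 9.38 and 9.10 with the empty vector, 8.54 and 8.62 with the full-length fusion, 8.85 and 8.55 with delFG1 and 8.42 and 8.60 with delFG2. Its empty vector arrays were above the other 6, and it fell with the full-length fusion by 0.66 ± 0.13 (SE; adjusted p by limma = 0.0102). Osm differed by -0.38 and Lif by -0.25, and neither passed; the 95% interval of Lif, -0.59 to 0.10, included 0.

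Cxcl1, Cxcl2 and Cxcl3 attract neutrophils through Cxcr2, Cxcl10 is an interferon-induced attractant of T cells, and Cxcr4 is the receptor that retains blood progenitors in the bone marrow. Cxcl2 read 10.30 and 10.80 with the empty vector, 9.64 and 9.47 with the full-length fusion, 9.60 and 9.46 with delFG1 and 9.99 and 10.45 with delFG2. The 4 full-length and delFG1 arrays lay below the other 4. Cxcl2 fell with the full-length fusion by 0.99 ± 0.15 (SE; 1.99-fold; adjusted p by limma = 0.00316), by 0.66 among arrays numbered 1 and 1.32 among those numbered 2. The neighbouring Cxcl1 and Cxcl3, each of which has the same motif in its promoter window, had differences of -0.17 (95% interval -0.45 to 0.10) and -0.35 (-0.62 to -0.08) and did not pass. Cxcl3 read 7.67 and 8.44 with the empty vector, 7.49 and 7.91 with the full-length fusion, 7.37 and 7.80 with delFG1 and 7.88 and 8.17 with delFG2, so that each fusion group overlapped the empty vector, and both delFG1 arrays lay below both delFG2 arrays. Cxcl10 differed by -0.44, but by -0.83 among arrays numbered 1 and -0.05 among those numbered 2. Cxcr4 lay between 10.60 and 10.79 on all 8 arrays and differed by -0.08 (95% interval -0.23 to 0.07).

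The CC chemokines split into genes on either side of the empty vector. Ccl17 and Ccl22 are ligands of Ccr4 and attract T helper and regulatory T cells. Ccl17 read 8.91 and 8.17 with the empty vector, 10.43 and 9.22 with the full-length fusion, 10.05 and 8.94 with delFG1 and 9.26 and 8.46 with delFG2. Ccl22 read 7.24 and 6.65 with the empty vector, 9.19 and 7.50 with the full-length fusion, 8.07 and 7.07 with delFG1 and 7.45 and 6.70 with delFG2. For both genes the array numbered 1 was the higher in every group, and within each number the order was full-length, delFG1, delFG2, empty vector. Ccl17 rose with the full-length fusion by 1.28 ± 0.12 (SE; 2.44-fold; adjusted p by limma = 0.000155). Ccl22 rose by 1.40 ± 0.21 (SE; 2.64-fold; adjusted p by limma = 0.00245), by 1.96 among arrays numbered 1 and 0.85 among those numbered 2. Their receptor Ccr4, outside the set, rose by 1.10 (adjusted p by limma = 0.000798).

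Ccl6 and its receptor Ccr1 moved the other way. Ccl6, a myeloid chemokine, read 12.60 and 12.94 with the empty vector, 12.16 and 12.39 with the full-length fusion, 12.02 and 12.40 with delFG1 and 12.46 and 12.80 with delFG2. Ccr1 read 9.04 and 9.78 with the empty vector, 8.43 and 8.94 with the full-length fusion, 8.49 and 8.92 with delFG1 and 8.98 and 9.38 with delFG2. In each number the full-length and delFG1 arrays were the lowest pair for both genes. Ccl6 fell with the full-length fusion by 0.49 ± 0.05 (SE; adjusted p by limma = 0.000307) and Ccr1 by 0.72 ± 0.10 (SE; adjusted p by limma = 0.00167). The macrophage chemokines Ccl3, Ccl4 and Ccl9, and the T cell attractant Ccl5, had differences between -0.09 and 0.15 and did not pass. The monocyte attractants Ccl2 and Ccl7 had differences of -0.64 and -0.46 that came from empty vector array 2: Ccl2 read 9.75 and 11.15 with the empty vector, so that the full-length group was 0.15 higher among arrays numbered 1 and differed by -1.42 among those numbered 2, and Ccl7 by 0.18 and -1.10.

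Tumour necrosis factor (Tnf) acts through the receptors Tnfrsf1a, found on most cells, and Tnfrsf1b, found mainly on blood and endothelial cells. Tnfrsf1b read 10.87 and 11.16 with the empty vector, 10.39 and 10.69 with the full-length fusion, 10.56 and 10.78 with delFG1 and 10.57 and 10.95 with delFG2, and fell with the full-length fusion by 0.48 ± 0.07 (SE; adjusted p by limma = 0.00172). The fall was 0.49 among arrays numbered 1 and 0.47 among those numbered 2, and the delFG2 arrays overlapped those of the empty vector. Tnf read 10.23 and 11.08 with the empty vector, 10.14 and 10.52 with the full-length fusion, 9.94 and 10.35 with delFG1 and 10.23 and 10.98 with delFG2. Its difference with the full-length fusion was -0.33 (95% interval -0.57 to -0.08, adjusted p by limma = 0.119) and that of Tnfrsf1a -0.26 (-0.43 to -0.09, adjusted p by limma = 0.0735), and neither passed.

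IL-10 and TGF-beta 1 limit inflammation, while IL-12, made of the chains Il12a and Il12b, drives T helper 1 responses; the Il12a chain is also part of IL-35. Il12a read 6.58 and 6.83 with the empty vector, 7.52 and 7.52 with the full-length fusion, 7.27 and 7.33 with delFG1 and 7.32 and 7.31 with delFG2. The arrays of each fusion group nearly coincided, and all 6 were above the empty vector. Il12a rose with the full-length fusion by 0.81 ± 0.11 (SE; 1.75-fold; adjusted p by limma = 0.00142), and it was the nearest of the set to passing without the block (adjusted p by limma = 0.0558). Il10 read 4.89 and 5.01 with the empty vector, 5.35 and 5.25 with the full-length fusion, 4.97 and 5.17 with delFG1 and 5.10 and 5.21 with delFG2, and rose by 0.35 ± 0.08 (SE; adjusted p by limma = 0.0215). Those signals are low, below the array median on every array, and the deposited values carry no detection calls, so whether Il10 RNA was present cannot be told. The other chain of IL-12, Il12b, lay between 5.46 and 5.78 and differed by 0.19, and Tgfb1 lay between 11.77 and 11.82 and differed by 0.03; neither passed. Il10ra, the IL-10 receptor chain, read 8.84 and 9.13 with the empty vector, 8.81 and 8.75 with the full-length fusion, 8.34 and 8.63 with delFG1 and 8.83 and 8.95 with delFG2. It differed by -0.20 (95% interval -0.43 to 0.03) between full-length fusion and empty vector, and its delFG1 arrays were the lowest of the 8.

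Vegfa, the main growth factor of blood vessels, read 9.25 and 9.24 with the empty vector, 9.88 and 9.79 with the full-length fusion, 9.70 and 9.69 with delFG1 and 9.97 and 9.49 with delFG2. The 6 fusion arrays were above both empty vector arrays, and Vegfa rose with the full-length fusion by 0.59 ± 0.11 (SE; 1.51-fold; adjusted p by limma = 0.01). The myeloid growth factors did not pass: Csf1, which supports macrophages, differed by -0.42 (95% interval -0.73 to -0.12) and Csf2, which supports granulocytes and macrophages and was below the array median on all arrays, by 0.14 (-0.04 to 0.33).

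The 3 regulators inside the cell all fell. Tnfaip3 encodes A20, a ubiquitin-editing enzyme that ends NF-kB signalling, and read 8.99 and 8.85 with the empty vector, 7.96 and 8.17 with the full-length fusion, 7.96 and 8.22 with delFG1 and 7.93 and 8.46 with delFG2. Its empty vector arrays were above the other 6, and the fall with the full-length fusion was 0.86 ± 0.14 (SE; 1.82-fold; adjusted p by limma = 0.00385). Nfkbia read 11.40 and 11.76 with the empty vector, 10.85 and 11.21 with the full-length fusion, 11 and 11.37 with delFG1 and 11.06 and 11.61 with delFG2, and fell with the full-length fusion by 0.55 ± 0.07 (SE; adjusted p by limma = 0.000695). Within each number the full-length array was the lowest for Nfkbia. Nlrp3, the sensor of the inflammasome that processes IL-1-beta, read 8.96 and 8.65 with the empty vector, 8.52 and 7.89 with the full-length fusion, 8.65 and 7.83 with delFG1 and 8.34 and 8.31 with delFG2. It fell with the full-length fusion by 0.61 ± 0.16 (SE; adjusted p by limma = 0.045), and differed from most of the genes that fell in that its arrays numbered 2 were the lower ones.

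**Figure D2:**
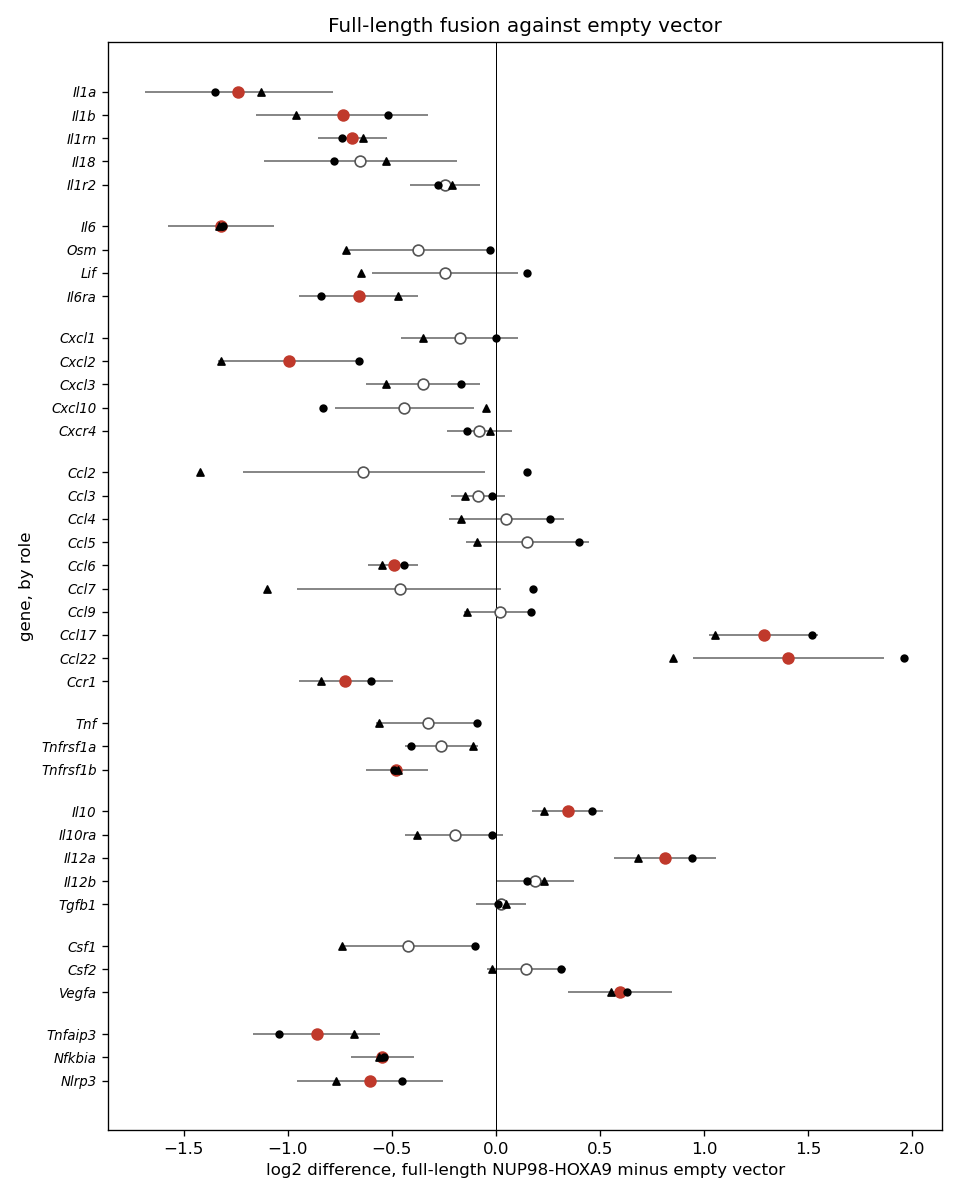
Difference in log2 signal, full-length NUP98-HOXA9 minus empty vector, for the 38 measured genes grouped by role; large circles are the differences of group means, filled red where the adjusted p was under 0.05 in the fit with the block, grey bars are 95% intervals from that fit, and the small circle and triangle are the differences among arrays numbered 1 and 2. Ccl17 and Ccl22 stand furthest to the right, at 1.28 and 1.40, and Il6 and Il1a furthest to the left, at -1.32 and -1.24.

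These calls were repeated with each array left out in turn, in the fit with the block. Leaving out a mutant array kept all 4 arrays compared here, so those fits mostly repeat the call. A group left with 1 array is fitted exactly, so leaving out either array of a group gives the same residuals. The 8 fits are therefore not separate checks. Ccl17, Ccl22, Ccl6, Ccr1, Il12a, Il1rn, Il6, Nfkbia and Tnfrsf1b passed in all 8 such fits, with Il6 between -1.39 and -1.25, Ccl17 between 1.12 and 1.45 and Ccl22 between 0.95 and 1.86. Cxcl2 did not pass without full-length array 2, where its adjusted p by limma was 0.0913. Il1a, Tnfaip3 and Vegfa did not pass when either of the full-length arrays was left out, with adjusted p by limma of up to 0.102, 0.0773 and 0.149. Il10 did not pass without empty vector array 1 or full-length array 1 (adjusted p by limma up to 0.241), and Il6ra without empty vector array 1 or either full-length array (up to 0.182). Il1b and Nlrp3 did not pass when any of the 4 arrays of these groups was left out (adjusted p by limma up to 0.37 and 0.348). The number of genes that passed went from 17 to 10 without full-length array 1 and to 11 without full-length array 2, and was at most 19, without empty vector array 1.

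Of the 12 genes that fell, all had a promoter window and 5 held the 10-letter NF-kB form, namely Il1rn, Il6, Cxcl2, Tnfaip3 and Nfkbia. Of the 4 genes that rose and had a window, 0 did, and of the 15 other measured genes with a window, 4 did: Cxcl1, Cxcl3, Ccl9 and Csf1. A shorter form, GGGNNTTCC, which overlaps that one at Tnfaip3 and Ccl9, was in 5 of 32 genes (15.6%, against 6.58% of all genes), in 2 of the 12, 0 of the 4 and 2 of the 15. Il1r1, which was not measured, held this form and the C/EBP site below, and is in the totals but in no split. The AP-1 site TGANTCA was in 7 (21.9%, against 8.97%), by the same split in 4, 0 and 3. The C/EBP site TTNNGNAA was in 17 (53.1%, against 44.1%), split as 9, 1 and 6. Of letters that HOX proteins bind, TAATTA was in 1 gene (3.12%, against 6.12%), TTTATNN in 16 (50%, against 43.7%; split as 8, 0 and 8) and the PBX-HOX site TGATTNAT in 0 (against 3.74%). All motifs were searched on both strands, and a match says only that the letters are present.

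In most lists of other genes of these pathways, more genes fell than rose. Of the pattern recognition receptors, which sense microbial products, 9 of 16 measured fell with the full-length fusion and 0 rose, with a median difference of -0.40. They included Ly96, the partner of Tlr4, which fell by 0.92 (adjusted p by limma = 0.000143), Tlr7, which fell by 0.98 (0.000155), Tlr8, by 1.28 (0.000215), and Tlr2, by 0.66 (0.00256). Of genes that inflammatory stimuli induce, other than the 39, 10 of 28 fell and 0 rose (median -0.30), led by the scavenger receptors Msr1, which fell by 1.08, and Marco, by 0.85, the urokinase receptor Plaur, by 0.63, and Thbs1, by 0.49. Of the cytokine receptor chains, 9 of 27 fell and 0 rose (median -0.17), with the smallest p for Nrp1, a coreceptor of VEGF, which fell by 0.95, Il17ra, by 0.92, Tgfbr2, by 0.64, and Tgfbr1, by 0.46. Of the inflammasome and pyroptosis genes, 4 of 15 fell, among them the ATP receptor P2rx7 by 0.58, Naip2 by 0.38 and the DNA sensor Aim2 by 0.34, and 1 rose, Mefv by 0.54 (median -0.27).

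Within the NF-kB pathway itself, 4 of 34 genes fell and 0 rose (median -0.14). They were the inducible regulators Nfkbiz, which fell by 0.66 (adjusted p by limma = 0.00387), Nfkbid, by 0.57 (0.0136), Irak2, by 0.42 (0.0112), and Irak3, by 0.38 (0.00693). None of the genes for the NF-kB subunits or the IkB kinases in the list passed. The chemokine receptors were mixed, with Ccr4 (1.10), Ccr2 (1.10) and Ccr7 (1.05) higher and Cxcr2, the receptor of Cxcl1 to Cxcl3, lower by 1.09 (median of 20 measured, 0.06). Of the 21 other chemokines, 2 fell and 1 rose (median 0.01): the platelet chemokines Ppbp fell by 1.63 and Pf4 by 0.49, and Cxcl15 rose by 0.47. Of the genes of these pathway lists, Ppbp was the 1 that also passed without the block in this comparison.

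Markers of several blood cell types moved with these genes, and their part in the results was not tested. Of 14 monocyte and macrophage markers measured, 8 fell with the full-length fusion and 1, Ccr2, rose. Their summed intensity was 22381 and 27426 with the empty vector, 17461 and 19968 with the full-length fusion, 16288 and 19445 with delFG1 and 18850 and 23072 with delFG2. Mrc1 fell by 1.15 and Ctss by 0.82 (adjusted p by limma = 0.000214 and 0.000249), while the markers of resident macrophages C1qa, C1qb, Cd163, Vsig4 and Siglec1 were dim. Of 16 neutrophil markers 6 fell and 1 rose, with summed intensities of 70159 and 78044 with the empty vector, 63700 and 72748 with the full-length fusion, 63930 and 73642 with delFG1 and 73750 and 78024 with delFG2. Of 14 mast cell and basophil markers 5 fell and 1 rose; summed intensities were 18413 and 19923, 15787 and 18916, 12806 and 15957, and 17350 and 20311 in the same order of groups. Of 6 eosinophil markers 3 fell, and the sums were 5830 and 11159, 4429 and 6909, 4002 and 6695, and 5256 and 9098. Of 5 megakaryocyte and platelet markers 4 fell and 1 rose, of 5 erythroid markers 1 fell, and of 10 markers of stroma and endothelium 2 rose.

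Beside the rise of Ccl17 and Ccl22, which mature dendritic cells also make, 2 of 12 dendritic cell markers rose with the full-length fusion and 0 fell. H2-Ab1 read 9.41 and 9.63 with the empty vector and 10.68 and 9.84 with the full-length fusion, and Ccr7 6.81 and 6.78 against 8.58 and 7.10. Like Ccl17 and Ccl22, both were highest on full-length array 1. The summed intensity of the 12 markers was 3649 and 3777 with the empty vector, 6151 and 3890 with the full-length fusion, 4311 and 3193 with delFG1 and 3666 and 3330 with delFG2, and Flt3, Zbtb46, Xcr1, Clec9a, Cd209a, Siglech and Batf3 were dim. That sum rests mostly on Cd74, H2-Ab1 and H2-Eb1, which read 11.26, 10.68 and 9.54 on full-length array 1. The part of the 12 markers in the rise of these chemokines was not tested. Of the stem and progenitor markers 4 of 9 rose and 0 fell, which were Hoxa9 itself, Cd34 by 0.86, Meis1 by 0.80 and Angpt1 by 0.50. B cell markers (0 of 7) did not pass, and of 10 T and NK cell markers 1 rose, Thy1; the defining genes Cd79a, Ms4a1, Pax5, Cd3e, Cd3d and Cd3g were dim on these arrays.

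The comparison of delFG1 with the full-length fusion sets the deletion beside the intact protein. Hoxa9 read 9.41 and 9.43 with the full-length fusion, 8.40 and 7.93 with delFG1 and 8.06 and 7.59 with delFG2. Whether the amount of fusion RNA had a part in the differences of either mutant from the full-length fusion was not tested. No gene of the set passed, with or without the block (0 of 38, against 0.078% of all probe sets with the block and 0.00918% without), and unadjusted p-values under 0.05 by limma were found for 1 gene without and 7 with the block. Of the 21789 probe sets, 451 without and 886 with the block had such p-values. The median difference was -0.02, against 0.00 over all probe sets. The nearest to passing was Ccl22, which was 0.77 lower with delFG1 (95% interval -1.23 to -0.32, adjusted p by limma = 0.551). For Il6 the difference was -0.19 (95% interval -0.44 to 0.06), for Cxcl2 -0.03 (-0.36 to 0.31), for Ccl6 -0.06 (-0.18 to 0.05), for Ccr1 0.02 (-0.20 to 0.24) and for Tnfaip3 0.03 (-0.27 to 0.33). Intervals were widest for Ccl2 (-0.59 to 0.56), Ccl7 (-0.53 to 0.44) and Il18 (-0.04 to 0.88), and a missed threshold does not show that delFG1 and the full-length fusion act alike. Of the marker lists, 2 of 9 stem and progenitor markers were lower with delFG1 and 0 of the others passed. In 10 of 38 genes the arrays of these groups did not overlap (26.3%), and 25.7% of all probe sets did not.

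With delFG2, Il6 and Ccl6 were higher and Ccl17 and Ccl22 lower than with the full-length fusion, 4 of 38 genes (10.5%) against 0.468% of all probe sets (0.298% higher and 0.17% lower). Without the block 0 passed, against 0.0275% of all probe sets, with an adjusted p of 1 for each of the 4 and 4 of the set at an unadjusted p under 0.05 by limma; with the block 16 had an unadjusted p under 0.05. Such unadjusted p-values were found for 602 of the 21789 probe sets without the block and 1829 with it. Il6 was higher by 0.96 ± 0.11 (SE; 1.94-fold; adjusted p by limma = 0.00508), by 0.93 among arrays numbered 1 and 0.98 among those numbered 2. Ccl6 was higher by 0.36 ± 0.05 (SE; adjusted p by limma = 0.012). Ccl17 was lower by 0.97 (95% interval -1.23 to -0.71, adjusted p by limma = 0.00579), though delFG2 array 1, at 9.26, was above full-length array 2, at 9.22. Ccl22 was lower by 1.27 (-1.72 to -0.81, adjusted p by limma = 0.0256), and its delFG2 arrays were below both full-length arrays. The next genes were Ccr1, 0.50 higher (adjusted p by limma = 0.0704), Il1rn, 0.35 higher (0.084), Nfkbia, 0.31 higher (0.0983), and Cxcl2, 0.67 higher (0.122). Over the set the median difference was 0.17, against -0.01 over all probe sets. Of the 38, 26 were above 0, where 47.7% of all probe sets were. Il6ra (-0.07), Tnfaip3 (0.13), Nlrp3 (0.12), Vegfa (-0.11) and Il12a (-0.20) did not pass, and each 95% interval included 0.

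These calls depended on single arrays. Fits without an empty vector or delFG1 array kept all the arrays compared here. Leaving out either array of a group gives the same residuals, so such fits are not separate checks. Without full-length array 1, delFG2 array 1 or delFG2 array 2 none of Il6, Ccl6, Ccl17 and Ccl22 passed, and without full-length array 2 Il6 and Ccl6 did not. Over the fits with 1 array left out the adjusted p by limma reached 0.12 for Il6, 0.215 for Ccl6, 0.172 for Ccl17 and 0.347 for Ccl22, while the difference lay between 0.89 and 1.03 for Il6, between 0.29 and 0.42 for Ccl6, between -1.13 and -0.80 for Ccl17 and between -1.72 (without full-length array 2) and -0.81 (without full-length array 1) for Ccl22. The number of genes that passed was 0 without full-length array 1 or delFG2 array 2, 1 (Il1a) without delFG2 array 1, 2 without full-length array 2 and 11 when either of the empty vector arrays was left out. Markers moved here too, and their part was not tested: 5 of 16 neutrophil markers were higher with delFG2 than in the full-length group, among them Camp by 0.76, Mmp9 by 1.03 and Cxcr2 by 0.87, and 1 of 14 monocyte and macrophage markers, Mrc1 by 0.64. Also higher were 2 of 14 mast cell and basophil markers, Fcer1a by 0.86 and Gzmb by 0.75, 1 of 6 eosinophil markers, Ear6 by 0.56, 1 of 5 megakaryocyte and platelet markers and 1 of 5 erythroid markers. Stem and progenitor markers were lower in 3 of 9, with Hoxa9 lower by 1.60 and Cd34 by 0.55. Of the other pathway lists, 4 of 28 induced inflammatory genes were higher (Mmp9, Msr1, Thbs1 and Plaur), as were Cxcr2 and Ppbp, and no other gene of these lists passed.

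The comparisons of the 3 fusion proteins with the empty vector share the same 2 control arrays, so their values are given side by side and not tested against each other. With delFG1, 16 of 38 genes passed (42.1%, against 6.12% of all probe sets), 13 lower and 3 higher (against 4.18% and 1.94%); without the block 0 passed, against 0.129% of all probe sets, with adjusted p-values for the 16 from 0.109 to 0.667, and 12 of the set had an unadjusted p under 0.05 by limma, or 26 with the block. The counts of such unadjusted p-values over the 21789 probe sets were 2093 without the block and 3957 with it. With delFG2, 2 passed (5.26%, against 0.505% of all probe sets, 0.399% lower and 0.106% higher), Il6ra, which fell by 0.73 (adjusted p by limma = 0.0349), and Il12a, which rose by 0.61 (0.0413); without the block 0 passed, against 0.00459% of all probe sets, with 7 at an unadjusted p under 0.05 by limma and 16 with the block. Here 965 of the 21789 probe sets without the block and 2356 with it had such unadjusted p-values. The median difference of the set was -0.34 with delFG1 and -0.07 with delFG2. Markers moved with the set, and their part was not tested. With delFG1, 9 of 14 monocyte and macrophage markers fell and 1 rose, 8 of 14 mast cell and basophil markers fell, 5 of 16 neutrophil markers fell and 2 rose, and 3 of 6 eosinophil, 4 of 5 megakaryocyte and platelet and 1 of 5 erythroid markers fell. Of 9 stem and progenitor markers 2 rose and 1 fell. Also, 1 of 7 B cell and 1 of 10 stroma and endothelium markers rose, and 1 of 10 T and NK cell markers fell. With delFG2, 3 of 14 monocyte and macrophage markers fell, and 0 of the other marker lists passed in either direction.

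For Il6 the differences from the empty vector were -1.32 with the full-length fusion, -1.51 with delFG1 and -0.36 with delFG2. Ccl22 differed by 1.40, 0.63 and 0.13 in the same order, and Ccl17 by 1.28, 0.95 and 0.32. Cxcl2 (-0.99, -1.02 and -0.33), Ccl6 (-0.49, -0.55 and -0.13) and Ccr1 (-0.72, -0.70 and -0.23) also had their smallest difference with delFG2. For other genes the delFG2 difference lay nearer the full-length one: Tnfaip3 differed by -0.86, -0.83 and -0.73, Il6ra by -0.66, -0.54 and -0.73, Il12a by 0.81, 0.59 and 0.61, Vegfa by 0.59, 0.45 and 0.48, and Nlrp3 by -0.61, -0.57 and -0.49. Over the 17 genes that passed with the full-length fusion, the difference with delFG1 was 35% to 114% of the full-length one (median 78%) and that with delFG2 9% to 111% (median 54%). It was smaller in size with delFG2 than with delFG1 in 13 of the 17. The 17 were chosen for their full-length difference, so these percentages are a description.

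Tnf, Cxcl3 and Il10ra passed with delFG1 but not with the full-length fusion, at differences from the empty vector of -0.51, -0.47 and -0.50 (adjusted p by limma = 0.0192, 0.0474 and 0.0173), against -0.33, -0.35 and -0.20 with the full-length fusion; the differences between these fusion proteins did not pass. With 1 array left out in the fit with the block, Ccl17, Ccl6, Ccr1, Cxcl2, Il6 and Tnfaip3 passed in all 8 fits for delFG1 against the empty vector, and the number of genes that passed went from 16 to 6 without delFG1 array 2. Cxcl3 passed in 1 of the 8, without empty vector array 1 (adjusted p by limma up to 0.277). Tnf did not pass without empty vector array 2 or delFG1 array 2 (up to 0.199), nor Il10ra without those or delFG1 array 1 (up to 0.293). For delFG2 against the empty vector, Il6ra passed in 4 of 8 and Il12a in 1 of 8, without empty vector array 2, where 8 genes of the set passed (adjusted p by limma up to 0.531 and 0.505).

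**Figure D3:**
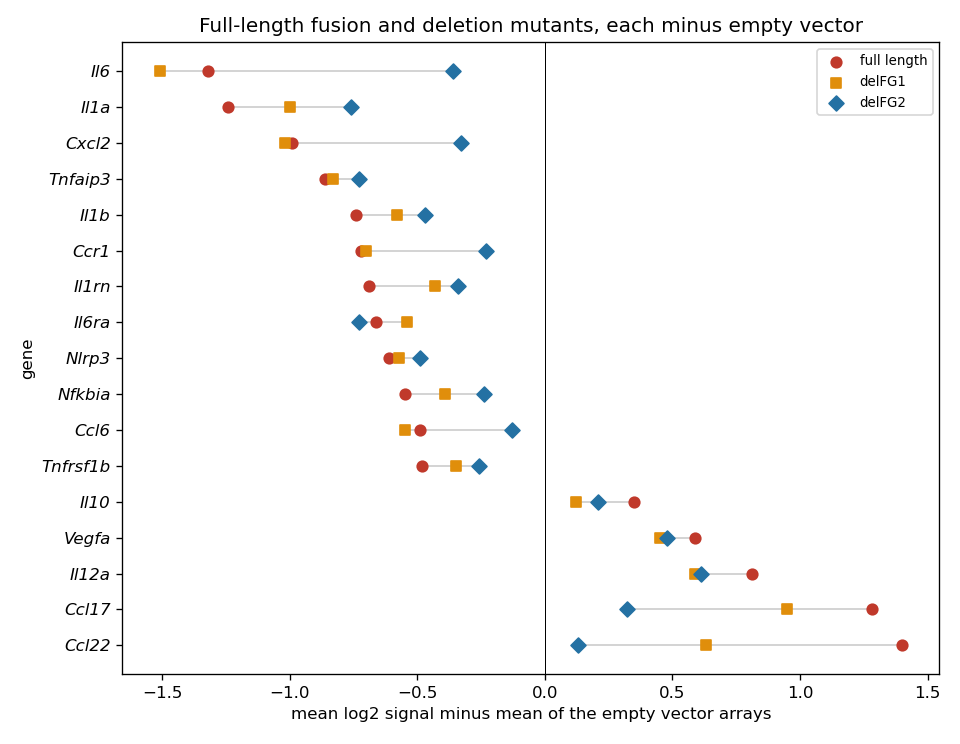
Difference of each fusion group's mean log2 signal from the mean of the same 2 empty vector arrays, for the 17 genes that passed for the full-length protein when the array number was a block; red circles are full-length NUP98-HOXA9, orange squares delFG1 and blue diamonds delFG2, 2 arrays each. For Il6, delFG2 stands at -0.36 and the other proteins at -1.32 and -1.51, while for Tnfaip3 all lie between -0.86 and -0.73.

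The mutants differed from each other in Il6, which was 1.15 ± 0.11 (SE; 2.21-fold) higher with delFG2 than with delFG1 (adjusted p by limma = 0.00404), in Ccl6, 0.42 ± 0.05 higher (0.0092), and in Ccl17, 0.64 lower (95% interval -0.89 to -0.38, adjusted p by limma = 0.0461). These were 3 of 38 (7.89%), against 0.537% of all probe sets (0.404% higher and 0.133% lower). Without the block 0 passed, as did 0% of all probe sets, with 5 of the set at an unadjusted p under 0.05 by limma and 13 with the block. Over the 21789 probe sets the counts of such unadjusted p-values were 683 without the block and 1758 with it. The difference was above 0 in 32 of 38 genes and in 45.9% of all probe sets. The median was 0.09 in the set, against -0.01 over all probe sets. Il6 and Ccl6 did not pass without delFG1 array 1 or either delFG2 array (adjusted p by limma up to 0.0869 and 0.17), and with 1 array left out Ccl17 passed only where that was an empty vector array (up to 0.703 otherwise). When either of the empty vector arrays was left out, 7 genes passed. Markers were higher with delFG2 than with delFG1 in 4 of 14 for mast cells and basophils, 4 of 16 for neutrophils, 2 of 14 for monocytes and macrophages, 2 of 6 for eosinophils, 2 of 5 for megakaryocytes and platelets and 1 of 5 for erythroid cells. In these lists 0 were lower, and their part was not tested.

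Many of these genes also differed between the array numbers. Between arrays numbered 2 and 1, with the group in the model, 13 of 38 genes were higher and 3 lower in number 2 (42.1%), against 11.2% of all probe sets (6.43% higher and 4.75% lower). The labels do not say what the numbers stand for. The largest differences above 0 were in Cxcl10 (0.96), Il18 (0.79), Il6 (0.64), Tnf (0.59) and Ccr1 (0.52), and each was higher in number 2 in all 4 groups. The other 8 were Il1rn, Il1r2, Cxcl3, Ccl4, Ccl6, Tnfrsf1a, Tnfrsf1b and Nfkbia. The 3 lower genes were Ccl22 (-1.01, 2.01-fold, adjusted p by limma = 0.00171), Ccl17 (-0.96, adjusted p by limma = 0.000131) and Nlrp3 (-0.45, adjusted p by limma = 0.0264), each lower in number 2 in all 4 groups. Marker lists moved with the number as well, and their part was not tested: 10 of 16 neutrophil markers (1 lower), 7 of 14 monocyte and macrophage markers (0 lower), 6 of 14 mast cell and basophil markers (1 lower) and 3 of 6 eosinophil markers (0 lower) were higher in number 2. The eosinophil list had the highest median difference, 0.43, with Ear6 higher by 1.25, Prg2 by 0.71 and Epx by 0.69. Lower in number 2 were 4 of 9 stem and progenitor markers, 2 of 12 dendritic cell markers, 2 of 10 markers of stroma and endothelium and 1 of 10 T and NK cell markers. Of the 17 genes that passed with the full-length fusion, 8 did not pass between the numbers: Il1b, which differed by 0.44 (adjusted p by limma = 0.058), and Il1a, Cxcl2, Il6ra, Il10, Il12a, Vegfa and Tnfaip3, with differences from -0.15 to 0.21.

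**Figure D4:**
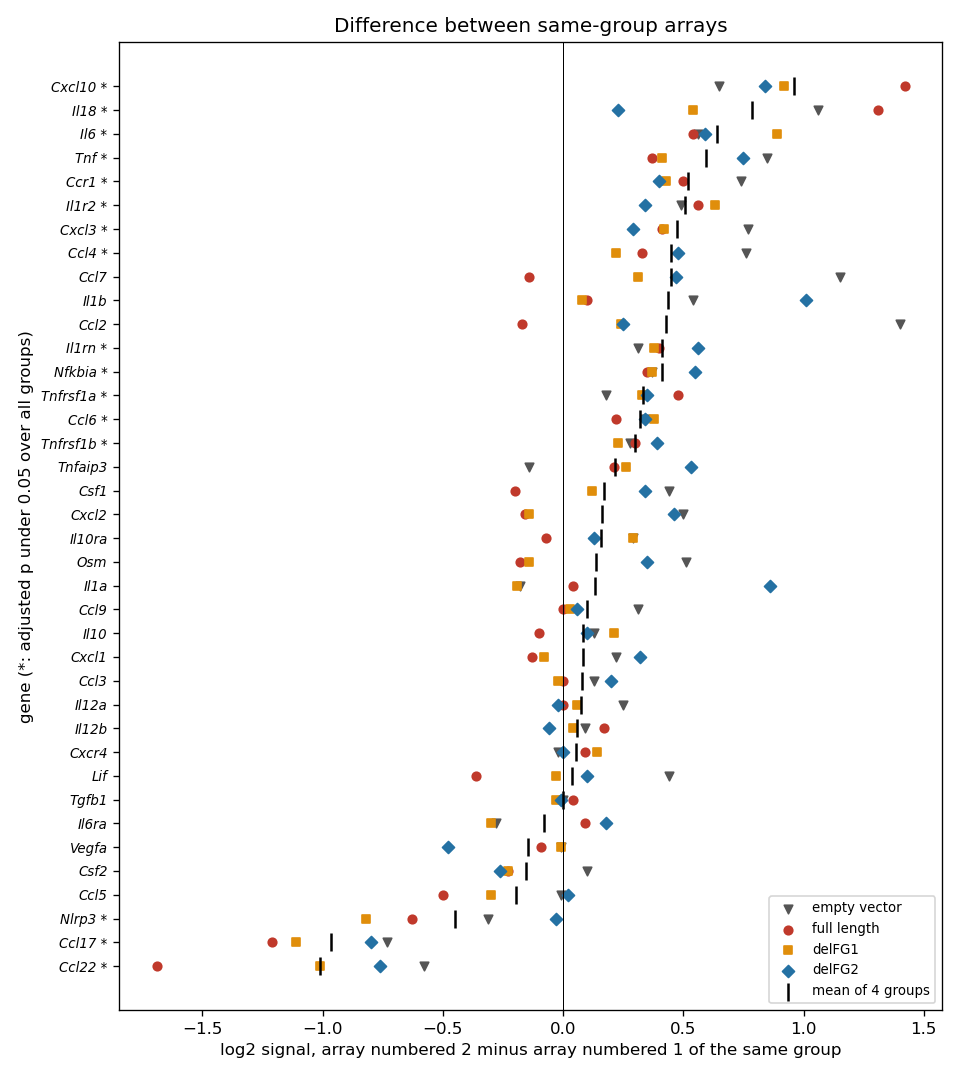
Difference in log2 signal between the array numbered 2 and the array numbered 1 of the same group, for the 38 measured genes ordered by the mean of the 4 groups; each symbol is 1 group, the black bar is the mean, and an asterisk marks an adjusted p under 0.05. Cxcl10 stands at the top with a mean of 0.96, and Ccl17 and Ccl22 at the bottom with -0.96 and -1.01, with all 4 groups on the same side of 0 for each.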

How the data were processed

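Total RNA was extracted with RNeasy columns and labelled with the GeneChip WT Terminal Labeling Kit, per the labels' protocols. The authors deposited 1 table of probe set intensity values on a linear scale for the 8 arrays; how they were background-corrected and normalised, and on which array model, is stated neither in the labels nor in the table. All columns matched a sample title. Of 28853 probe sets, 21789 had 1 gene symbol in the platform annotation and were tested, 1621 had several and 5443 none. Values were used as deposited, as log2(intensity + 1); the log2 step and all later steps were computed here. A 2-array group limits the precision: an exact permutation test of 2 against 2 arrays cannot go below p = 0.333.

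Group means were compared in limma 3.58.1 (R 4.3.3; lmFit, eBayes with an intensity trend; two-sided, Benjamini-Hochberg over the 21789 probe sets), with all 4 groups in 1 fit, without the array number and with it as an additive block (residual degrees of freedom 4 and 3, prior 4.62 and 7.78). The pairing rests on the numbers in the sample titles and on the data: over all tested probe sets, deviations from group means correlated between same-numbered arrays in all 6 pairs of groups (0.401 to 0.640), above the set minimum of 0.1. The labels do not say what the numbers mark. The code of the fits was run on simulated data with independent noise, an additive effect of the array number and changes larger than those of the set. That run checked the code and does not bear on the calls given here.

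The genes, the pathway and marker lists and the motifs were chosen with earlier results of these data known. Values on every array are given for genes with an adjusted p under 0.05 in any comparison of groups by either fit, or with a 2-fold difference between array numbers past that threshold; Tnf, Cxcl3 and Il10ra entered through delFG1, and the values of Ccl2 are given for 1 group only, chosen after they were seen. From each pathway list up to 4 genes with the smallest p are named. A marker is called dim where it was below the median of all probe sets. Promoter sequences are from RefSeq (GRCm38.p6); all 38 measured genes matched a RefSeq symbol, and the 7 genes without a window are Il10ra, Ccl4, Ccl5, Ccl7, Il10, Osm and Ccl2. Alternatives changed the pseudocount (16), the scaling (median centring, quantile), the filter on dim probe sets, the trend, the averaging of probe sets, the groups in the fit and the arrays. For the comparisons of groups, all of these but the leaving out of arrays were run without the block only. The calls with the block were therefore not checked against the pseudocount, scaling, filter or trend. As each measured gene had 1 probe set, the averaging changed no value and could not alter a result.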

Additional observations from a re-analysis of the deposited data

How the results depend on the processing

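The array number as a replicate block changed the count of genes of the set past the threshold most: without it 0 passed in each comparison of groups, and with it 17 passed for full-length fusion against empty vector, 0 for delFG1 against full-length, 4 for delFG2 against full-length, 16 for delFG1 against empty vector, 2 for delFG2 against empty vector and 3 for delFG2 against delFG1. Without the block, 1 gene passed for full-length against empty vector with arrays centred on their medians (Il12a, adjusted p by limma = 0.0443) and 1 with only those 2 groups in the fit (Il1a, 0.0265); the other settings gave 0. Leaving out 1 array at a time gave 0 to 1 without the block for full-length and for delFG1 against empty vector (Il1a, when either of the delFG2 arrays was left out) and 0 in the other comparisons. With the block, leaving out 1 array gave 10 to 19 for full-length against empty vector, 0 for delFG1 against full-length, 0 to 11 for delFG2 against full-length, 6 to 18 for delFG1 against empty vector (12 without delFG1 array 1, and 14 without full-length array 1, full-length array 2 or empty vector array 2), 0 to 8 for delFG2 against empty vector and 0 to 7 for delFG2 against delFG1. Between the array numbers, 16 passed, and 15 to 18 with 1 array left out. Over the 42 pairs of a gene and a comparison that were followed, 0 changed direction in any setting, and 3 passed without the block in at least 1 setting. The pairs were chosen for passing, and settings such as the block or the trend cannot move a difference of group means. The count of changed directions is therefore a description and no measure of stability. With the block, leaving out either array of a group left the same residuals. Such pairs of counts are not separate checks, also between the array numbers. The cause of the changes in the number of genes that passed was not tested. Il10, Il12b and Csf2 lay below the median of every array, where background limits what a difference shows.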

Other observations

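In genes outside the set, Ppbp, a platelet chemokine, was 1.36 higher with delFG2 than with delFG1 on the log2 scale (adjusted p by limma with the block = 0.00404), and Pf4, another platelet chemokine, 0.82 higher (0.0184). Cxcr2 was 0.99 higher with delFG2 (adjusted p by limma = 0.00965) and Ccr4, the receptor of Ccl17 and Ccl22, 0.75 lower (95% interval -1.04 to -0.45, adjusted p by limma = 0.0428). Of the 28 induced inflammatory genes, 5 were higher with delFG2 than with delFG1 (Msr1, Mmp9, Plaur, Hdc and Thbs1) and 1 was lower, the adhesion molecule Vcam1. Of the 16 pattern recognition receptors, 1 was higher, Tlr7, by 0.52 (adjusted p by limma = 0.0357).

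Between the array numbers, 9 of 16 pattern recognition receptors, 9 of 27 cytokine receptor chains and 8 of 34 NF-kB pathway genes were higher in number 2 and none lower. Of the induced inflammatory genes 13 were higher and 2 lower, and of the 21 other chemokines 0 passed.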
